A study of Mus musculus with 7 samples.

Results

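Major histocompatibility complex (MHC) class I molecules carry peptides from inside the cell to its surface, where CD8+ T cells read them. A class I molecule is a heavy chain bound to beta-2 microglobulin (B2m). Peptides cut by the proteasome enter the endoplasmic reticulum through the transporter made of Tap1 and Tap2, and tapasin (Tapbp) holds the empty heavy chain beside that transporter while it is loaded. Nlrc5 is a transactivator of class I genes, and macrophages are known to raise class I expression after interferon and LPS.

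The 10 genes described here were chosen by their symbols, by a rule that uses no measured value but was written with earlier results of these data known: the classical heavy chains H2-K1 and H2-D1, the non-classical heavy chains H2-Q4, H2-T23 and H2-M3, the light chain B2m, the loading genes Tap1, Tap2 and Tapbp, and Nlrc5. All 10 symbols were found, once each, among the 48440 genes of the LPS table and the 55352 rows of the adeno-associated virus (AAV) table. All 10 passed the filter on low values in both tables. In the GRCm38 annotation (GENCODE M21) 8 of them lie on chromosome 17. B2m is on chromosome 2 (chr2:122147686-122153083, plus strand, 4 exons) and Nlrc5 is on chromosome 8 (chr8:94434356-94527272, plus strand, 53 exons).

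The cells were bone-marrow-derived macrophages (BMDMs) of wild-type C57BL/6 mice, grown with the macrophage growth factor M-CSF at 20 ng per mL. Unstimulated BMDMs (0 h) and BMDMs given LPS, which Toll-like receptor signalling in macrophages reads as a sign of bacteria, at 100 ng per mL for 2 h or 4 h gave 1 library each. Other BMDMs, without LPS, were transduced for 48 h with AAV carrying GFP (AAV-GFP, 2 samples) or Shisa3 (AAV-Shisa3, 2 samples), to ask what overexpression of this transmembrane protein changes. The labels give neither the age nor the sex of the mice, the study's methods name mice of both sexes within a range of ages without saying which gave these cells, and nothing says whether samples of a group came from separate cultures or animals, so p-values measure only the spread between these samples, which may be technical. Fewer cells of a type and less RNA per cell cannot be told apart in such bulk RNA.

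Gene reads numbered 15588502 in the 0 h library, 7263258 in the 2 h library and 32659392 in the 4 h library, so the 2 h values rest on the fewest. The AAV values were taken as TPM, a transcript's share of its sample corrected for length. Nothing in the sources names their unit, and their depth is unknown. Of the 7 macrophage markers fixed for the check, all were read in every library, and their summed level was 34024 to 37119 TPM in the AAV samples. Markers of B cells summed to 0.33 TPM at most and those of NK cells to 0.1 TPM at most, and the T cell gene Cd3e was at 0 in all 7 libraries. The lists for T cells (5.85 to 10.5 TPM, nearly all Cd4), dendritic cells (2.5 to 4.2 TPM) and fibroblasts (8.07 to 14.6 TPM) were also low. The list for neutrophils was not, at 479 to 895 TPM, nearly all S100a8 and S100a9. Shisa3 itself was at 7.88 and 10.9 TPM in AAV-GFP and at 12.3 and 17.8 TPM in AAV-Shisa3. Its groups did not overlap, but the log2 difference of 0.63 ± 0.22 (SE, n = 2 per group) did not pass (limma, adjusted p = 0.138). How a transcript from the vector was counted is not given in the sources used here, so this value may not measure all of the Shisa3 RNA in those cells.

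With LPS the deposited level of nearly all 10 genes was higher, and the differences at 4 h were largest for Nlrc5 and the transporter gene Tap1. Against 0 h, 9 of the 10 reached a 2-fold higher value at 2 h and 9 did so at 4 h, and none was 2-fold lower at either time. Of the 17854 genes kept, 20.5% were at least 2-fold higher and 24.7% lower at 2 h. At 4 h the shares were 22.2% higher and 23.6% lower. The median log2 difference of the 10 was 1.82 at 2 h and 2.07 at 4 h, where the median of all genes kept was -0.050 and -0.044. With 1 library per time point there is no replicate check of any of these differences and no test. A value here is a read count divided by the authors' factor for its library, differences are on the log2(value + 1) scale, and intervals on folds are 95% intervals that cover counting error only.

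Scaling mattered to the size. When the recovered reads were scaled to equal library totals, the median of all genes shifted to -0.68 at 2 h and -0.80 at 4 h, and 5 members at 2 h and 7 at 4 h remained at least 2-fold higher, with none lower. The calls over all genes were then 2427 higher and 7068 lower at 2 h, in place of 3668 higher and 4406 lower, and 2206 higher and 7597 lower at 4 h, in place of 3958 higher and 4207 lower. With centring of each library on its median instead, 4808 genes were higher and 3454 lower at 2 h and 5285 higher and 3036 lower at 4 h. All 10 members lay above the median of all genes at both times under the authors' scaling, library totals, centring and TMM (trimmed mean of M values).

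**Figure D1:**
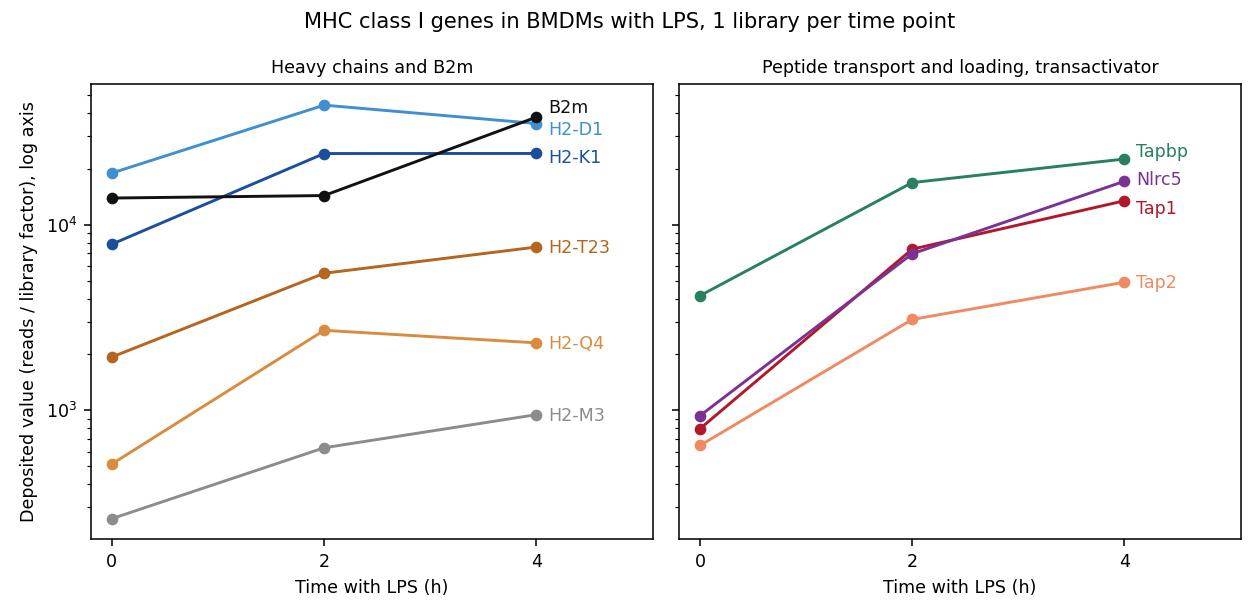
Deposited value (reads divided by the library factor, log axis) of each of the 10 genes at 0 h, 2 h and 4 h of LPS, 1 library per point. B2m is flat from 0 h to 2 h (13923 and 14360) and reaches 37963 at 4 h, while the classical heavy chains are higher by 2 h and Tap1, Tap2, Tapbp and Nlrc5 are highest at 4 h.

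The classical heavy chains present peptides to CD8+ T cells. H2-K1 (chr17:33996017-34000347, minus strand, 8 exons) was at 7861 at 0 h, 24184 at 2 h and 24203 at 4 h, 3.08-fold (95% interval 3.02 to 3.14) above 0 h at the last time. H2-D1 (chr17:35262730-35267499, plus strand, 8 exons) was at 18992, 44073 and 35087. H2-K1 had thus reached its level by 2 h, and H2-D1 was highest at 2 h and 1.85-fold (1.82 to 1.87) above 0 h at 4 h, the member that missed the 2-fold limit at that time. Scaled to library totals, the log2 difference at 4 h was 0.80 for H2-K1 and 0.062 for H2-D1. The ratio of H2-K1 to H2-D1 reads, which no library factor touches, was 0.414 at 0 h, 0.549 at 2 h and 0.690 at 4 h.

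B2m, the light chain that all class I heavy chains share, took another course. It was at 13923 at 0 h, 14360 at 2 h and 37963 at 4 h. The log2 difference at 2 h was 0.045 under the authors' scaling, -0.018 under TMM and -0.62 with library totals, so its direction at 2 h depended on the scaling. From 2 h to 4 h it was 2.64-fold higher (2.58 to 2.71). The ratio of B2m reads to the sum of H2-K1 and H2-D1 reads was 0.518 at 0 h, 0.210 at 2 h and 0.640 at 4 h. B2m has a short transcript of 860 nucleotides. Among genes whose mean value reached 1000, the 123 whose longest coding transcript had at most 1000 nucleotides had a median log2 difference of 0.45 at 2 h, against 0.53 for the 2452 with longer transcripts, and 15 of the 123 and 633 of the 2452 were at or below B2m. At 4 h the medians were 0.28 and 0.76.

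Between 2 h and 4 h most members differed by less than 2-fold. Only B2m and Nlrc5 were at least 2-fold higher at 4 h than at 2 h, and none was 2-fold lower, against 17.9% of all genes higher and 15.2% lower. The same 2 genes passed under library totals, centring and TMM. Over all genes this step gave 3197 higher and 2710 lower under the authors' scaling, and 2258 higher and 2873 lower with library totals. H2-D1 and H2-Q4 were lower at 4 h than at 2 h, by log2 differences of -0.33 and -0.22, and H2-K1 stood at 0.0011 (-0.16 with library totals).

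Among the 10 members, the loading genes differed from 0 h at 4 h by more than the heavy chains and B2m. Tap1 (chr17:34187553-34197225, plus strand, 11 exons), which forms one side of the peptide transporter, was at 796 at 0 h, 7383 at 2 h and 13456 at 4 h, 16.9-fold (16.0 to 17.9) above 0 h. Tap2 (chr17:34203527-34216321, plus strand, 12 exons), the other side, was at 647, 3090 and 4902, a 7.57-fold difference (7.10 to 8.09) at 4 h. Tap1 moved further than its partner: the ratio of Tap1 to Tap2 reads was 1.23, 2.39 and 2.75 at the 3 times. Tapbp (chr17:33915899-33929292, plus strand, 8 exons), which encodes tapasin, was at 4148, 16867 and 22591, 5.45-fold higher (5.30 to 5.59) at 4 h. With library totals these folds were 9.55 for Tap1, 4.28 for Tap2 and 3.08 for Tapbp.

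Nlrc5, which acts on class I promoters, was at 936 at 0 h, 6972 at 2 h and 17141 at 4 h. This was an 18.3-fold difference at 4 h (17.4 to 19.3), and 10.3-fold with library totals. By size it ranked 369 among the 17854 genes at 4 h and Tap1 ranked 400, so that 2.06% and 2.23% of genes lay higher. At 2 h Tap1 stood above Nlrc5, at log2 differences of 3.21 and 2.90. No part of the main Nlrc5 transcript was shared with another gene, when all its 75-base windows were compared with the GENCODE M21 transcripts.

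The 3 non-classical heavy chains were all at least 2-fold above 0 h at both times under the authors' scaling, and at 2 h H2-T23 (0.84) and H2-M3 (0.60) missed that limit on the log2 scale with library totals. H2-T23 (chr17:36029773-36032855, minus strand, 7 exons) encodes a chain that displays signal-peptide fragments of other class I chains to receptors on NK cells, and was at 1939 at 0 h, 5477 at 2 h and 7583 at 4 h, 3.91-fold (3.76 to 4.07) above 0 h. H2-Q4 (chr17:35379617-35385290, plus strand, 6 exons) was at 515, 2699 and 2311, and was 4.49-fold higher (4.16 to 4.85) at 4 h. H2-M3 (chr17:37270220-37274484, plus strand, 8 exons), which presents peptides that begin with N-formylmethionine, was at 261, 629 and 948, 3.63-fold higher (3.26 to 4.05). With library totals the folds at 4 h were 2.21 for H2-T23, 2.54 for H2-Q4 and 2.05 for H2-M3. H2-Q4 resembled H2-D1 in being highest at 2 h, whereas H2-T23 and H2-M3 were highest at 4 h. Their sequence limits how well reads can be assigned: 21.7% of the 75-base windows of the H2-Q4 transcript and 13.1% of those of H2-T23 also occurred in transcripts of other genes. For H2-D1 the share was 7.1%, for H2-K1 1.55%, and for H2-M3 and B2m 0%. Tapbp shared 17.5%, Tap2 8.97% and Tap1 4.79%, the last with the neighbouring Psmb9, and whether the counting used strand is not given in the sources used here.

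Together the 10 genes took 77760 of the reads at 0 h, or 0.499% (95% Wilson interval 0.495 to 0.502). They took 0.793% (0.786 to 0.799) at 2 h and 0.936% (0.933 to 0.940) at 4 h. This share is itself a scaling to library totals, so it depends on the other genes of each library. It was higher at each later time beyond counting error. Of the 7 macrophage markers, 1 was at least 2-fold higher at 4 h (the Fc receptor gene Fcgr1, at 1432, 4551 and 15965) and none lower (1 and 2 with library totals, the lower ones Csf1r and Lyz2), while the list's sum scaled to library totals was 32467 RPM at 0 h, 20689 RPM at 2 h and 17389 RPM at 4 h. Most of that sum was Lyz2 (24182, 14140 and 11786 RPM). The list's median log2 difference at 4 h was 0.11, and -0.72 with library totals, where the median of all genes was -0.80. Of the 5 dendritic cell markers, Ccr7 was higher (12.9, 63.3 and 262) and Flt3 lower, and with library totals 1 was higher and 2 lower. Xcr1 (2, 0 and 8 reads) passed the filter only through the 4 h library and is not counted. The sum of the list was 4.30, 7.57 and 16.3 RPM. The part of these shifts in the class I values was not tested.

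**Figure D2:**
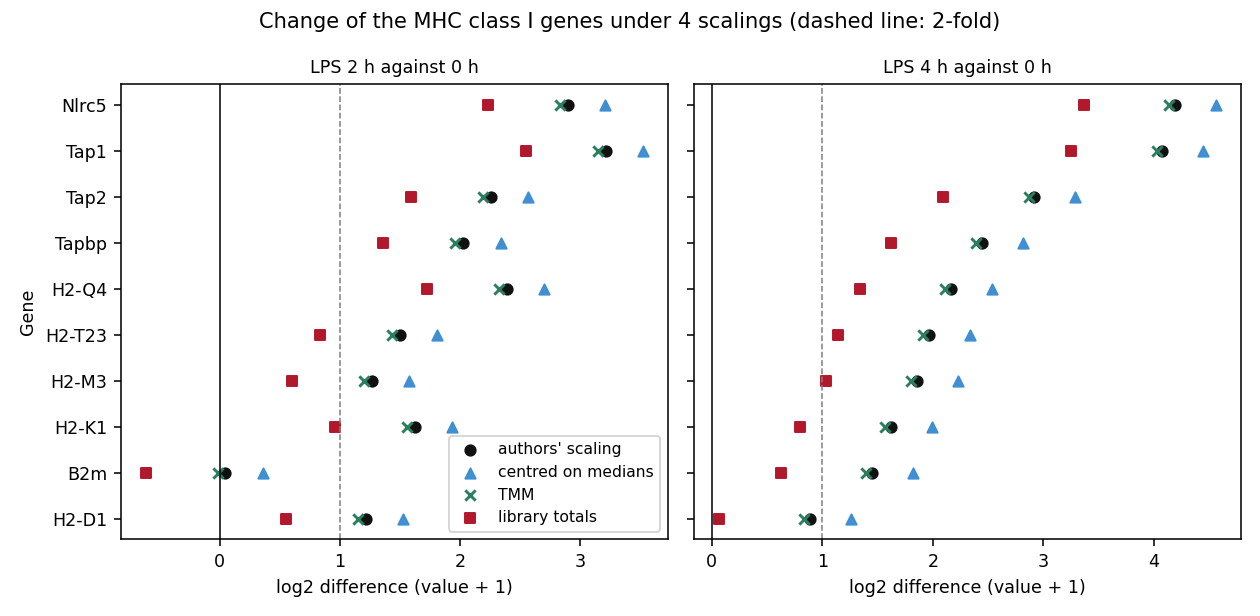
Log2 difference of the 10 genes at 2 h (left) and 4 h (right) against 0 h, with 1 symbol for each of 4 scalings and a dashed line at 2-fold. All points lie right of 0 except B2m at 2 h, at -0.62 with library totals and -0.018 with TMM, and Nlrc5 and Tap1 lie furthest right at 4 h under each scaling.

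Class I heavy chain promoters and that of B2m are known for shared short elements: a kappaB site for NF-kappaB, an interferon-stimulated element for IRF factors, and a downstream module of CRE-like and CCAAT-like boxes through which Nlrc5 acts. RefSeq promoter windows (GRCm38.p6, 250 bases before to 50 after the start site) were matched for 8 of the 10 genes, all but Tap2 and Nlrc5. The stretches with these letters are printed because 6 of these genes hold the IRF letters and 4 of them the kappaB letters. Capitals mark, on either strand, AANNGAAA (IRF core), GGGNNTTCC or GGNNTTTCC (kappaB, which can mark the same bases), and TGACG followed by ATTGG, the reverse of CCAAT, with their first bases 25 apart.
H2-K1 (chr17:34000349-34000468, minus strand): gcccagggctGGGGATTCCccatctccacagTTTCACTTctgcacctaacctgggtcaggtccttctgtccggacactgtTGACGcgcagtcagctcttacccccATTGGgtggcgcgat
H2-D1 (chr17:35262913-35263032, plus strand): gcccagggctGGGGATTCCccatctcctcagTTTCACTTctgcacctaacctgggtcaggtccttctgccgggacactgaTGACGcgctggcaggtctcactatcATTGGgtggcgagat
H2-Q4 (chr17:35379434-35379481, plus strand): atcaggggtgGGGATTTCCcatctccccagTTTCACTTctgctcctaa
H2-M3 (chr17:37270123-37270227, plus strand): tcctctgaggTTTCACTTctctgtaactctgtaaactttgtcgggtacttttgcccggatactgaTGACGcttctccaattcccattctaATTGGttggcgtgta
H2-T23 (chr17:36032765-36032835, minus strand): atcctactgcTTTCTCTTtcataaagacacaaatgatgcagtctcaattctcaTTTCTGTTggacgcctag
B2m (chr2:122147540-122147648, plus strand): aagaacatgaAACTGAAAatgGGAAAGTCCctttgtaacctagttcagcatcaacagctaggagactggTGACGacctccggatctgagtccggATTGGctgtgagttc

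The H2-K1 and H2-D1 stretches carry the same letters in the same order and spacing: kappaB at positions -111 and -171 from the start site, the IRF core at -90 and -150, and TGACG at -41 and -101. Positions of H2-K1 are from the first of its 2 RefSeq windows. In B2m the IRF core (-137) comes before the kappaB letters (-126). H2-Q4 has kappaB (-173) and IRF (-153) letters, H2-M3 has the IRF letters (-101) with no kappaB match, and H2-T23 has a pair of IRF matches (-124 and -81). In the windows of Tap1 and Tapbp neither the IRF nor the kappaB letters were found, which says nothing of elements elsewhere. A CCAAT match was present in all 8 windows and TGACG in 6.

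These letters are common to different degrees. Of 32851 promoter windows, 23.9% held the IRF core, 9.83% either kappaB form, 20.8% TGACG and 37.4% the CCAAT letters. The pair of TGACG with ATTGG at 25 bases, a spacing noticed in these windows and then counted, stood in 0.0944% of windows. H2-K1, H2-D1, B2m and H2-M3 were among the 27 genes that hold the spaced pair. Of the other 23 genes, 17 passed the LPS filter, and 3 of these were at least 2-fold higher and 5 lower at 4 h, where 22.2% and 23.6% of all genes were. Among the higher ones, Ibsp (0, 4.37 and 1.09) passed the filter only through the LPS libraries, so it had to be higher. Among the lower ones, Cdnf (12.9, 0 and 2.17) passed only through the 0 h library, so it had to be lower. With library totals 1 of the 17 was higher and 7 lower, where 12.4% and 42.6% of all genes were. The highest was Trim26, a gene of the class I region on chromosome 17, at a log2 difference of 2.28. The kappaB letters, the IRF core and the spaced pair together stood in 5 of the 32851 windows (0.0152%), those of H2-K1, H2-D1 and B2m among them.

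**Figure D3:**
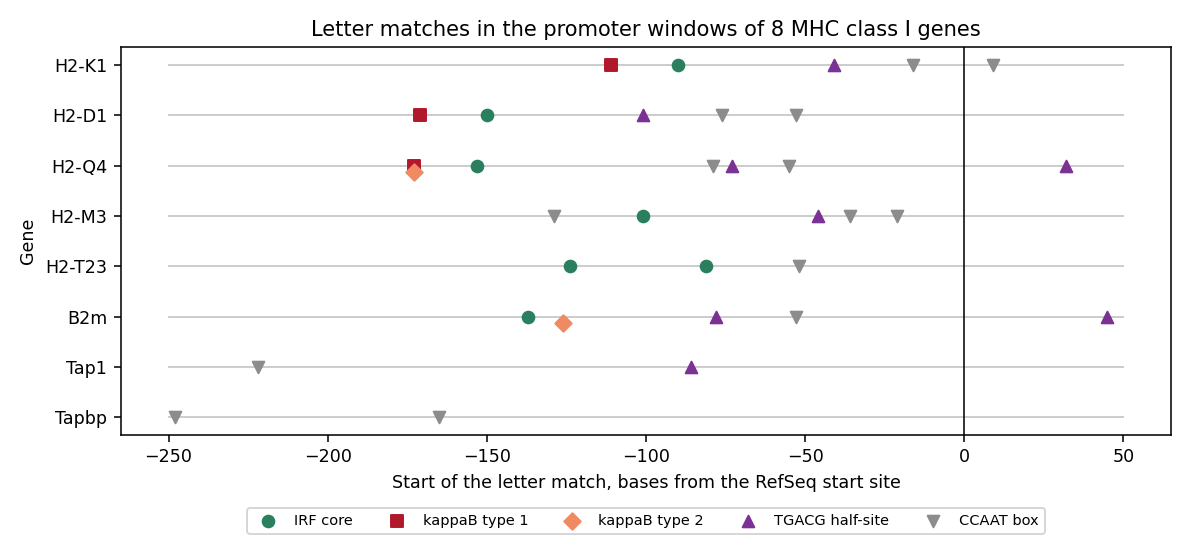
Start of each letter match in the RefSeq promoter windows of 8 genes, in bases from the start site (vertical line), with 1 symbol per motif. H2-K1, H2-D1 and H2-Q4 show kappaB, IRF and CCAAT matches in the same order, B2m has the IRF match first, and Tap1 and Tapbp show only CCAAT or TGACG matches.

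The neighbouring steps of the pathway were described with gene lists, whose counts at 4 h stand beside 22.2% of all genes at least 2-fold higher and 23.6% lower. At 4 h 8 of 9 peptide generation genes were at least 2-fold higher and none lower, with a median of 2.07. The largest log2 differences were those of the proteasome activator subunit Psme2 (3.27) and the immunoproteasome subunits Psmb10 (3.05), Psmb9 (2.73) and Psmb8 (2.64). Of 10 other class I and class I-like genes kept, 8 were higher and 1 lower. H2-Q10 (0, 1 and 5 reads) and H2-M2 (1, 11 and 84 reads) passed the filter only through the LPS libraries, so they had to be higher, and the other 8 genes gave 6 higher and 1 lower. With library totals H2-Q7 was at 3.80, H2-Q6 at 2.68 and H2-T10 at 2.13 (4.62, 3.50 and 2.95 under the authors' scaling). At 0 h H2-Q7 had 13 reads and H2-Q6 had 20. The exception, named after its values were seen, was Mr1, which presents vitamin metabolites to MAIT cells, at 223 at 0 h, 83.0 at 2 h and 31.0 at 4 h (log2 difference -2.81).

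Of 8 genes for peptide loading and folding in the endoplasmic reticulum, 2 were higher at 4 h, a share near that of all genes: the chaperone Hspa5 (2.47) and the tapasin-related editor Tapbpl (1.72). Erap1, the peptidase that trims peptides for class I, was at 637 at 0 h and 1276 at 4 h, a fold of 2.00 that fell just short of the limit on the log2(value + 1) scale. The chaperones Calr (0.95) and Canx (0.19) also stayed below it. Among 14 genes for transcriptional control, 7 were higher and 2 lower. Irf1, an activator of class I promoters, was at 1501, 30233 and 10029, so it peaked at 2 h. Nfkb1, the p50 precursor, was at 1874, 16028 and 15582. The RFX subunit gene Rfxank (-1.81) and the class II transactivator gene Ciita (-1.61) were lower. In cross-presentation and traffic 4 of 9 genes were higher, led by the oxidase subunit Cybb (2.00) and Rab43 (1.60). In class II presentation 3 of 6 were, led by Cd74 (1.56), H2-Ab1 (1.38) and H2-Eb1 (1.00), none of which was 2-fold higher with library totals. With those totals, where 12.4% of all genes were higher and 42.6% lower, the counts at 4 h were 6 higher of 9 for peptide generation, 5 higher and 2 lower of 8 for the other class I genes without H2-Q10 and H2-M2, 1 and 1 of 8 for loading, 4 and 4 of 14 for transcriptional control, 1 and 2 of 9 for cross-presentation, and 0 and 1 of 6 for class II.

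Among genes read in both experiments, those with the pattern nearest to Nlrc5 over 3 log2 differences (LPS 2 h, LPS 4 h and AAV) were Fmnl2, Pnp, Ifi204, Ext1 and Slfn5, at distances of 0.0489 to 0.274 among 10529 genes. The genes nearest to H2-K1 were Gm29585, Gm21370, Sash1, 2510039O18Rik and Gm14269, at 0.0863 to 0.141. Gm29585 and Gm21370 both had 1.67 at 2 h, the difference that 1 read against none gave H2-Q10.

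In the AAV samples B2m was the highest member. Levels there can be compared between genes only if the values are TPM, as they were taken to be. In AAV-GFP it was at 4898 and 4361 TPM, followed by H2-D1 (2715 and 2774 TPM), H2-K1 (2059.7 and 2103 TPM), H2-T23 (585 and 596 TPM), Tapbp (429.65 and 439.82 TPM), Tap1 (171 and 176 TPM) and H2-Q4 (87.8 and 96.7 TPM). Each of these lay above the next in both samples. Tap2 (69.9 and 77.5 TPM), Nlrc5 (57.1 and 79.0 TPM) and H2-M3 (58.8 and 62.4 TPM) came last, and Tap2 and Nlrc5, and Nlrc5 and H2-M3, overlapped. B2m was 1.03 and 0.894 times the sum of H2-K1 and H2-D1.

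In AAV-Shisa3 most of the 10 genes were near their AAV-GFP level. None passed as higher and 1, H2-T23, passed as lower, where 2.23% of the 11218 genes tested passed as higher and 4.1% as lower (limma on log2(TPM + 1), Benjamini-Hochberg adjusted p under 0.05). Without adjustment 3 members had p under 0.05, against 3137 of all genes. Both AAV-Shisa3 samples lay above both AAV-GFP samples for H2-K1, Tap1 and Nlrc5, and below for Tap2, H2-Q4 and H2-T23, and 4 members overlapped. Over all genes tested 18.2% lay above and 41.2% below. The members' median log2 difference was -0.022 and that of all genes -0.10. Centring of the samples on their medians shifted the median of all genes to 0.015, and the calls over all genes turned from 250 higher and 460 lower to 410 higher and 230 lower. With 2 samples against 2, an exact permutation test of a single gene cannot give a two-sided p below 0.333.

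**Figure D4:**
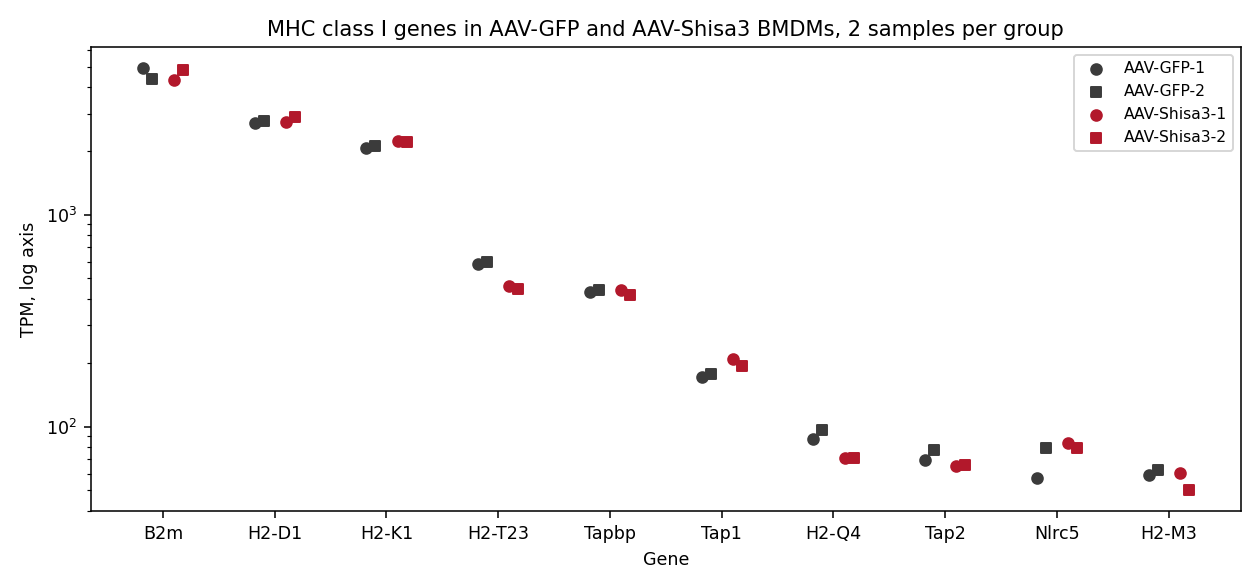
TPM (log axis) of each of the 10 genes in the 2 AAV-GFP and 2 AAV-Shisa3 samples, genes ordered by their AAV-GFP mean, 1 symbol per sample. The AAV-Shisa3 points of H2-T23 (458 and 444 TPM) lie below its AAV-GFP points (585 and 596 TPM), while those of B2m and H2-D1 overlap.

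H2-T23 was at 585 and 596 TPM in AAV-GFP and at 458 and 444 TPM in AAV-Shisa3. Both AAV-Shisa3 samples were lower, and the log2 difference was -0.39 ± 0.066 (SE, n = 2 per group, 95% interval -0.55 to -0.22; limma, adjusted p = 0.0343). H2-T23 shares 13.1% of its windows with other genes (75 bases each). The call was lost with the samples centred on their medians (log2 difference -0.27, adjusted p = 0.0968), without the trend (0.0958), without a filter (0.116) and when any 1 sample was left out (0.128 to 0.204). Over all alternatives the adjusted p ran from 0.0242 to 0.204, and the log2 difference stayed negative. The ratio of H2-T23 to H2-K1, which no scaling of a sample changes, was 0.284 and 0.283 in AAV-GFP and 0.206 and 0.202 in AAV-Shisa3.

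H2-Q4, another non-classical chain, had 87.8 and 96.7 TPM in AAV-GFP and 71.02 and 70.9 TPM in AAV-Shisa3. The groups did not overlap, but the log2 difference of -0.37 ± 0.083 did not pass (limma, adjusted p = 0.0584, and 0.0437 to 0.239 over the alternatives). H2-M3, the third of this kind, had 58.8 and 62.4 TPM against 60.2 and 50.0 TPM, and its groups overlapped (log2 difference -0.14, 95% interval -0.41 to 0.13, and -0.024 after centring).

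The classical chains and their light chain differed little. H2-K1 was at 2059.7 and 2103 TPM in AAV-GFP and 2228 and 2199 TPM in AAV-Shisa3, H2-D1 at 2715 and 2774 TPM against 2723 and 2885 TPM, and B2m at 4898 and 4361 TPM against 4319 and 4793 TPM. The log2 differences were 0.089 for H2-K1 (95% interval -0.077 to 0.25), 0.030 for H2-D1 (-0.15 to 0.21) and -0.022 for B2m (-0.26 to 0.21). After centring they were 0.20, 0.15 and 0.093. None passed (limma, adjusted p of 0.427, 0.813 and 0.896).

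Of the loading genes, Tap1 was at 171 and 176 TPM in AAV-GFP and at 209 and 192 TPM in AAV-Shisa3, both above, with a log2 difference of 0.21 ± 0.077 (limma, adjusted p = 0.154), or 0.32 after centring. Tap2 was at 69.9 and 77.5 TPM against 65.1 and 66.2 TPM, both below (log2 difference -0.16, 95% interval -0.37 to 0.049, and -0.047 after centring). The partners of the transporter thus stood on opposite sides of AAV-GFP, and the ratio of Tap1 to Tap2 was 2.45 and 2.27 in AAV-GFP and 3.21 and 2.91 in AAV-Shisa3. Tapbp was at 429.65 and 439.82 TPM against 440.45 and 416 TPM, with a log2 difference of -0.022 (0.094 after centring). Nlrc5 was at 57.1 and 79.0 TPM in AAV-GFP, the widest spread of the 10 in proportion to its mean, and at 83.2 and 79.6 TPM in AAV-Shisa3, and its log2 difference of 0.27 had a 95% interval of -0.11 to 0.66. It was 0.39 after centring, 0.042 without AAV-GFP replicate 1 and 0.50 without AAV-GFP replicate 2.

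**Figure D5:**
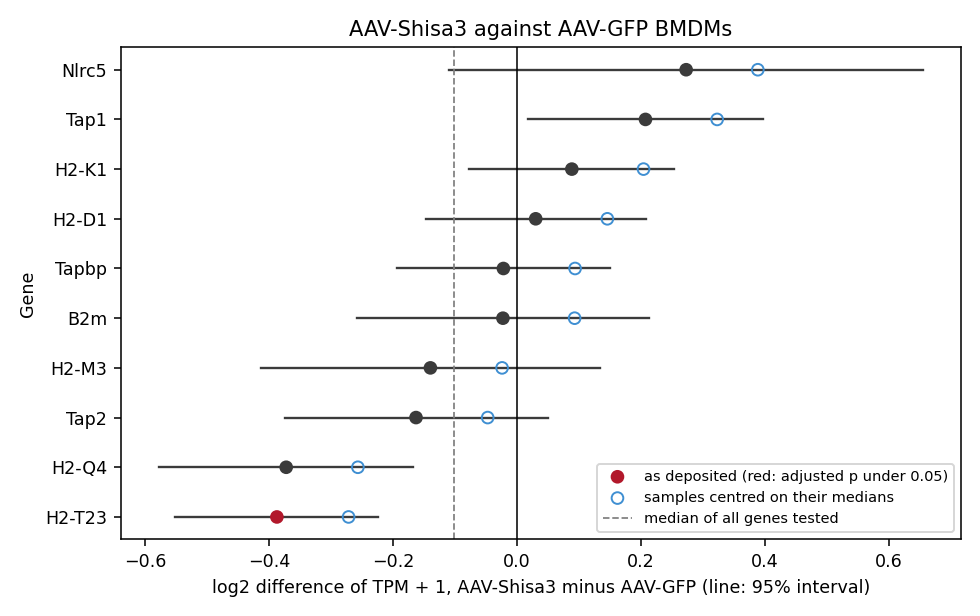
Log2 difference of TPM + 1 (AAV-Shisa3 minus AAV-GFP) of the 10 genes with its 95% limma interval (filled points), and the difference after centring each sample on its median (open points). The intervals of H2-T23, H2-Q4 and Tap1 leave out 0, H2-T23 (-0.39, red) is the one with an adjusted p under 0.05, and the dashed line marks the median of all genes (-0.10).

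In the lists around the pathway the genes that passed were 1 higher and 2 lower, shares near the 2.23% and 4.1% of all genes tested. None of the 8 other class I genes tested, 8 loading genes, 9 peptide generation genes or 6 class II genes did. The chaperone Calr, which retains heavy chains for loading, came nearest among the loading genes, at 880.37 and 878 TPM against 717 and 649 TPM (log2 difference -0.36, limma, adjusted p = 0.0517). Among 13 genes for transcriptional control tested, Nfkb1 was higher (119.87 and 143 TPM against 196 and 186 TPM, log2 difference 0.54, limma, adjusted p = 0.0418). Creb1, whose product binds CRE-like boxes, was lower (29.2 and 25.8 TPM against 19.0 and 15.7 TPM, -0.64, limma, adjusted p = 0.0476). Of 8 cross-presentation genes, Rab43 was lower (65.9 and 70.2 TPM against 42.5 and 48.0 TPM, -0.58, limma, adjusted p = 0.0319). These 3 calls were lost without the trend, without a filter and when any 1 sample was left out (limma, adjusted p of 0.0770 to 0.202), and that of Creb1 also after centring (0.0916). The class II list had a median of 0.47, but H2-Ab1 (21.8 and 35.9 TPM against 27.9 and 54.6 TPM) and Cd74 overlapped between the groups. H2-Aa (13.85 and 23.05 TPM against 23.3 and 33.7 TPM) and H2-DMa (12.05 and 12.98 TPM against 14.5 and 18.2 TPM) lay above in both samples without passing, and no gene of the list lay below. Of all genes tested, 18.2% lay above and 41.2% below.

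Markers of other cells moved beside these values. Of all genes tested, 18.2% lay above AAV-GFP in both AAV-Shisa3 samples and 41.2% below. The neutrophil markers S100a8, S100a9 and Elane, 3 of the 4 listed, were above AAV-GFP in both AAV-Shisa3 samples, none of them past the threshold, and the list summed to 513 and 479 TPM in AAV-GFP and 895 and 551 TPM in AAV-Shisa3, with Ly6g under 1 TPM throughout. The macrophage markers Csf1r (log2 difference 0.31) and Fcgr1 (-0.35) lay apart in opposite directions without passing. Cd4 of the T cell list lay above in both samples (log2 difference 0.51), and Itgam of the macrophage list (-0.19) and Col1a2 of the fibroblast list (-0.48) below in both, none of them past the threshold. The part of these in the values of H2-T23, H2-Q4 and Tap1 was not tested.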

How the data were processed

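RNA-seq of BMDMs was made by the authors with the VAHTS Universal V6 kit and paired-end reads of 150 bp. The aligner and annotation are not given in the sources used here. The labels name the build mm9, and 83.8% of the gene identifiers of the LPS table, with their version, match GENCODE M21 (GRCm38), which was used for positions. The deposited LPS values have the unit signal: whole reads divided by 1 factor per library, and 100% of them came out whole within 1% of a step. The deposited AAV values sum to 999778 to 999818 per sample and were taken as TPM, since nothing in the sources names the unit.

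LPS genes whose mean value reached 1 were compared on log2(value + 1), called at 2-fold, with no test (1 library per time point). AAV genes whose mean reached 1 TPM were tested with limma 3.58.1 (trended, R 4.3.3) on log2(TPM + 1), with Benjamini-Hochberg adjustment over all 11218 genes. TMM factors came from edgeR 4.0.16, and figures and counts from Python 3.11.15. Alternatives were other scalings, filters and pseudocounts (0.1 and 5), no trend, the replicate block and each sample left out. All 10 members were named, with the members of each list that changed most (at most 4 a list), and the 5 genes nearest to Nlrc5 and to H2-K1. The members and lists were chosen with earlier results of these data known. H2-T9 was in neither table.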

Additional observations from a re-analysis of the deposited data

How the results depend on the processing

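The number of members lower in AAV-Shisa3 was 1 as reported. It was 0 without the trend, after centring and without a filter, and 0 to 0 when 1 sample was left out. It was 2, with H2-Q4 added, when at least 1 TPM was asked of every sample and with the replicate block. The samples of a number share only that number (the deviations of same-numbered samples correlated at 0.188 over genes, with 2 pairs), and no pairing is drawn from it. The replicate block gave H2-T23 an adjusted p of 0.0253 and H2-Q4 one of 0.0437, changed no other member's call, and over all genes gave 424 higher and 851 lower. Over all genes the other settings gave 1 higher and 4 lower without the trend, 0 and 0 without a filter, 410 and 230 after centring, 325 and 617 with at least 1 TPM in every sample, and 0 to 27 higher and 0 to 7 lower when 1 sample was left out, which leaves a lone sample assumed to vary like the other group.

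Signs turned for genes near 0. After centring, B2m went from -0.022 to 0.093 and Tapbp from -0.022 to 0.094. With 1 sample left out, B2m ranged from -0.11 to 0.061 (above 0 without AAV-GFP replicate 1 or AAV-Shisa3 replicate 1), Tapbp from -0.062 to 0.019 (above 0 without AAV-Shisa3 replicate 2) and H2-D1 from -0.011 (without AAV-Shisa3 replicate 2) to 0.072. Without changing sign, Nlrc5 ranged from 0.042 (without AAV-GFP replicate 1) to 0.50 (without AAV-GFP replicate 2), Tap2 from -0.24 (without AAV-GFP replicate 1) to -0.089 (without AAV-GFP replicate 2) and H2-M3 from -0.27 (without AAV-Shisa3 replicate 1) to -0.0088 (without AAV-Shisa3 replicate 2). With LPS, 5 members at 2 h were at least 2-fold higher under library totals, against 9, and the counts at the other times and settings stayed within 1.5 times those reported. The 2 h library was the shallowest, and with 1 library per time point no sample could be left out. A DESeq2 alternative was not run on the AAV values, which are not counts.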
